A study of Mus musculus with 4 samples.

Results

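The genes described here control lipolysis, the breakdown of stored triglyceride in fat cells. They are receptors and inhibitors that either restrain or stimulate it. The list held 9 genes: the restraining Ptger3, Npr3, Adora1, Pde3b and G0s2, the stimulating Adrb1, Adrb3 and Npr1, and Paqr9, a membrane protein related to the adiponectin receptors that was assigned to neither side. Every probe set naming 1 of these genes alone was taken, and the brightest over the 4 arrays led for each gene. This gave 9 probe sets for 6 of the 9 listed genes, among 17097 genes in all. The annotation used pairs no probe set with Adora1, Adrb1 or Adrb3 alone, and these were not analysed here. The genes were chosen with differences between the genotypes already known, so these differences are given as values with standard errors (SE) and no p-value.

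The samples were whole inguinal mammary glands of mice at postnatal day 10. Wild-type mice, labelled Mt1-mmp(+/+), were compared with littermates lacking the protease gene Mt1-mmp in all cells, labelled Mt1-mmp(-/-), on the outbred Swiss Black background. There were 2 arrays per genotype, each from a sample labelled as a biological replicate, and the labels name no treatment. The gland was not separated into its cells, so the fat pad, epithelium and adjoining tissue all gave RNA, and fewer cells of a type cannot be told apart from less RNA per cell. Because the deletion is global, the arrays do not show in which cell a transcript differed.

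A fat cell releases fatty acids when cyclic AMP or cyclic GMP activates its protein kinases. Catecholamines raise cyclic AMP through the beta-adrenergic receptors (Adrb genes), and natriuretic peptides raise cyclic GMP through Npr1, which is itself a guanylyl cyclase. Several brakes oppose them: Ptger3 (the EP3 receptor of prostaglandin E2) and Adora1 (the adenosine A1 receptor) couple to the inhibitory G protein, Pde3b degrades cyclic AMP under insulin, Npr3 clears natriuretic peptides from the cell surface, and G0s2 binds and inhibits the lipase encoded by Pnpla2.

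The sequences before the start sites of Ptger3 and G0s2 are shown because both genes were lower in both knockout arrays. They come from RefSeq, build GRCm38.p6, which held an entry for 4 of the 6 measured genes. For Ptger3, chr3:157566626-157566820 on the plus strand is printed, and the 55 bases next to the start site are left out because they lie inside the annotated gene span. For G0s2, chr1:193273189-193273438 on the minus strand is printed. Capitals mark matches to a searched motif on either strand.
Ptger3: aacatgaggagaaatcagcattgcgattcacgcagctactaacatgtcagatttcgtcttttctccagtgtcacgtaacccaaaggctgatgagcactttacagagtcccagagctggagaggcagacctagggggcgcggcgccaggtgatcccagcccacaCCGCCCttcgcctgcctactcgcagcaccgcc
G0s2: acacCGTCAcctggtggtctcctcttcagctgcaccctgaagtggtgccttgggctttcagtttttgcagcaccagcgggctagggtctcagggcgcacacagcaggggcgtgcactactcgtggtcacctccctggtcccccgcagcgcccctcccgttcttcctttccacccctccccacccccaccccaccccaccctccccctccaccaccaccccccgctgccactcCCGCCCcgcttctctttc
The window searched was the 250 bases before each start site, and 7 motifs were used, with 32851 such windows as background. The GC box, GGGCGG, matched 3 times in the full Ptger3 window, once in the G0s2 window and 2 times in that of Npr1, and 32.7% of all windows held it. The core of the cyclic AMP response element, TGACG, matched once in the windows of G0s2 and Npr3, against 17.8% of all windows. The full element TGACGTCA (1.5% of all windows, and it contains that core), the nuclear receptor motif AGGTCA (14.0%), the C/EBP motif TTGCNNAA (9.6%), the E-box CACGTG (6.0%) and TATAAA (12.4%) had no match in the windows of Ptger3, Npr3, G0s2 or Npr1. The Npr3 window, all 250 bases of which lie inside the annotated gene span of RefSeq and which is not printed for that reason, held no GC box. It had 38.8% G and C, against 62.0% for Ptger3, 67.2% for G0s2 and a median of 52.4% over all windows. A match is a stretch of letters and not evidence of binding.

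Among the restraining genes, 3 of the 4 measured were lower in both knockout arrays and 1, Pde3b, was higher in both. Of the 11078 genes bright enough to be tested, 32.5% were lower and 26.3% higher in this way. The genes were chosen with this contrast known, so nothing is read from the count. The prostaglandin receptor Ptger3 had 9.62 and 9.52 (RMA values, log2) on the wild-type arrays, against 7.03 and 6.11 on the knockout arrays. All wild-type values thus lay well above the knockout values, and knockout replicate 2 was the lowest. The difference was -3.00 ± 0.34 on the log2 scale (knockout minus wild type, SE, n = 2 per group), or 8.02-fold lower. A second probe set of Ptger3 was dim, with 4.73 and 4.51 on the wild-type arrays, against 4.67 and 4.69 on the knockout arrays, and its groups overlapped. It lay below the brightness limit of 4.94, the median over all probe sets, and differed by 0.06. The mean of both sets differed by -1.47.

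The clearance receptor Npr3 had 11.4 and 11.4 on the wild-type arrays, against 9.48 and 8.05 on the knockout arrays. Both knockout arrays lay below the wild-type arrays, which nearly coincided. The difference was -2.64 ± 0.52, or 6.23-fold lower. The other 2 probe sets of Npr3 showed the same order of arrays: one had 7.45 and 7.49 against 5.65 and 5.33, a difference of -1.98, and the other had 7.05 and 7.08 against 5.17 and 4.83, a difference of -2.06. All 3 probe sets of this gene therefore separated the genotypes, with the lowest value in knockout replicate 2.

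The lipase inhibitor gene G0s2 had 11.2 and 11.1 on the wild-type arrays, against 9.66 and 9.70 on the knockout arrays. Its groups did not overlap, and its knockout arrays nearly coincided. The difference was -1.48 ± 0.10, or 2.79-fold lower. The phosphodiesterase gene Pde3b went the other way, with 10.6 and 10.8 on the wild-type arrays, against 11.4 and 11.2 on the knockout arrays. Both knockout arrays were above both wild-type arrays, by 0.58 ± 0.13 in the mean, or 1.50-fold. The median difference of the 4 measured restraining genes was -2.06, which lies between Npr3 and G0s2 and does not show the opposite direction of Pde3b. The median over all 11078 tested genes was -0.02. Because the restraining genes were chosen with this contrast known, nothing is read from the distance between the 2 medians.

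On the stimulating side only the natriuretic peptide receptor Npr1 was measured. It had 4.22 and 4.27 on the wild-type arrays, against 4.08 and 4.30 on the knockout arrays, so the groups overlapped. All 4 values lay below the brightness limit, near the background of the array, and Npr1 was not tested. With Adrb1 and Adrb3 not analysed and Npr1 near background, restraining genes could not be set against stimulating genes in these data. The value that can be formed is the mean difference of the restraining genes minus that of Npr1, at -1.58, and it rests on the restraining genes.

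Paqr9 had the largest difference of the measured genes. It had 8.75 and 8.53 on the wild-type arrays, against 5.40 and 4.87 on the knockout arrays, which placed both knockout arrays close to the brightness limit. The difference was -3.51 ± 0.22, or 11.4-fold lower. Its single probe set leaves no second measurement. Values near the background compress differences on such arrays, so the fold may understate the change in transcript.

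**Figure D1:**
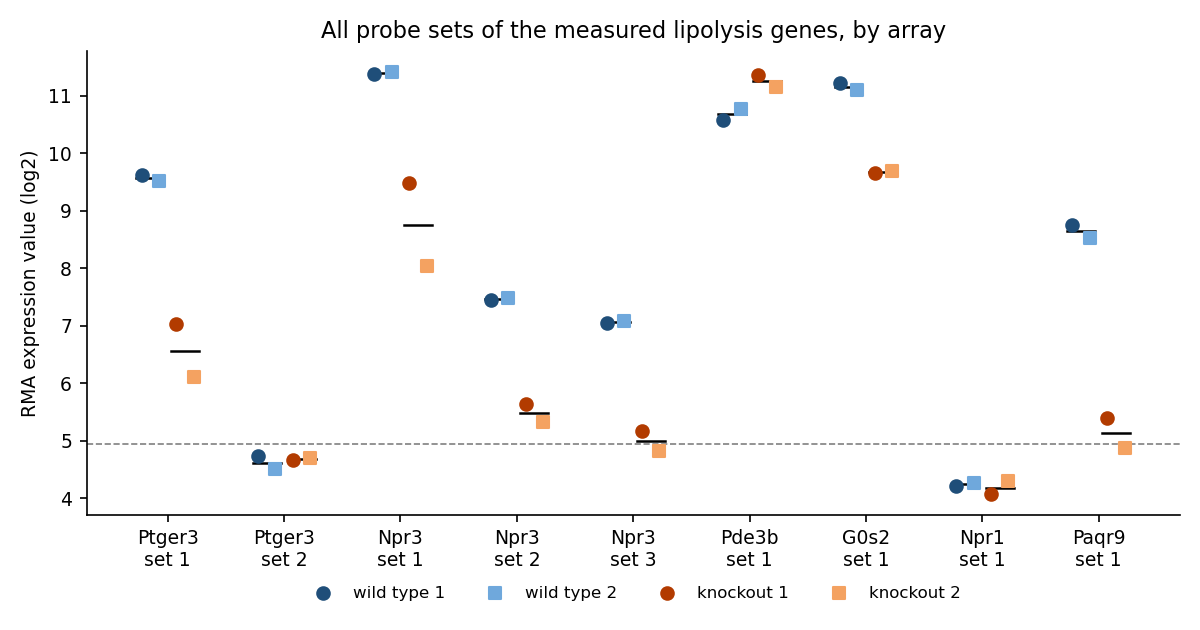
RMA expression value (log2, y axis) of all 9 probe sets of the 6 measured genes, with 1 point per array, black bars at the group means (n = 2) and a dashed line at the brightness limit of 4.94. The knockout points lie below the wild-type points in the lead sets of Ptger3, Npr3, G0s2 and Paqr9 and above them in Pde3b, while Npr1 and the second Ptger3 set lie under the dashed line.

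Of the 5 genes above the brightness limit, 4 were lower without overlap and at least 2-fold, where 2.12% of all tested genes were (and 1.21% were higher in that way). The fifth, Pde3b, was higher without overlap, as were 26.3% of tested genes, while 32.5% were lower without overlap. The genes were chosen with this contrast known, so nothing is read from these counts. Ordered from the most negative difference, Paqr9 ranked 4, Ptger3 9, Npr3 17 and G0s2 94 among the 11078 tested genes, and Pde3b ranked 672 from the most positive. With limma and Benjamini-Hochberg adjustment, 0 of the 11078 genes passed 0.05 in either direction and the smallest adjusted p was 0.0738, against 2411 genes, or 21.8%, at an unadjusted p under 0.05. The count rested on the spread of the knockout arrays: leaving out knockout replicate 1 gave 1455 calls higher and 2725 lower, leaving out knockout replicate 2 gave 746 and 553, and leaving out either wild-type array gave 0.

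**Figure D2:**
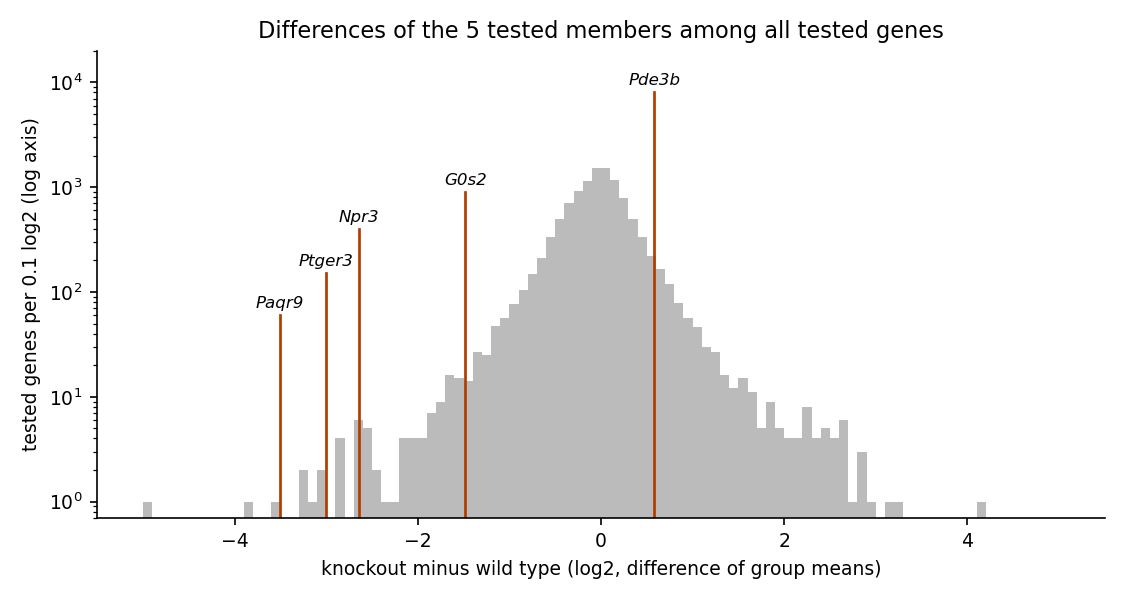
Number of tested genes (log axis) by difference between genotypes (knockout minus wild type, log2, bins of 0.1), with red lines at the 5 tested genes, whose heights carry no value. Paqr9 (-3.51), Ptger3 (-3.00) and Npr3 (-2.64) lie in the sparse left tail, G0s2 (-1.48) at its shoulder and Pde3b (0.58) on the right flank.

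The genes differed in how far the 2 knockout arrays stood apart. In its lead probe set Npr3 was 1.43 higher in knockout replicate 1 than in replicate 2, a gap wider than that of 96.9% of tested genes, but its dimmer sets had gaps of only 0.32 and 0.34. The lead-set gap was 0.92 for Ptger3 (wider than 94.0% of genes), 0.53 for Paqr9 (84.2%), 0.21 for Pde3b (49.9%) and -0.04 for G0s2 (10.6%). G0s2 was therefore lower to the same extent in both knockout glands, at -1.50 and -1.46 from the wild-type mean, while the lead set of Npr3 stood at -1.93 and -3.35 and its other sets at -1.82 and -2.14 and at -1.89 and -2.23. The wild-type arrays differed by at most 0.22 in any of these 5 genes, the largest gap being that of Paqr9.

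The knockout arrays also differed from each other in tissue markers. Over 11 tested skeletal muscle markers the median deviation from the wild-type mean was 5.93 in knockout replicate 2 and -0.76 in replicate 1. Their summed level on the linear scale was 363 and 2969 on the wild-type arrays, against 362 and 45984 on the knockout arrays. Over 9 tested markers of epidermis and hair follicle the median was 3.16 in knockout replicate 1 and -1.29 in replicate 2, with sums of 938 and 3091 against 12657 and 499. Of those on the array, Myh2, Krt1, Flg and Dsg1a lay below the brightness limit. The lowest Npr3 and Ptger3 values were in knockout replicate 2, the array with the high muscle markers, and the part of this tissue in the result was not tested. Between the wild-type arrays muscle markers differed by a median of 2.31 (replicate 2 minus replicate 1). The same difference was 0.03 for Npr3 and -0.10 for Ptger3. The muscle signal of both wild-type arrays stayed far below that of knockout replicate 2, so nothing is read from these values. In knockout replicate 1 Ptger3 was at -2.55, Npr3 at -1.93, Paqr9 at -3.24 and G0s2 at -1.50 from the wild-type mean.

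Fat cells carry these receptors, and their markers were measured on the same arrays. All 9 white adipocyte markers on the array passed the brightness limit, with a median difference of -0.15 and summed levels of 46578 and 46234 on the wild-type arrays, against 45621 and 38764 on the knockout arrays. Adiponectin (Adipoq) had 13.1 and 13.1 against 13.3 and 13.0, and the fatty acid binding protein gene Fabp4 had 13.5 and 13.5 against 13.5 and 13.3, with overlapping groups in both. Lpl, the lipoprotein lipase gene, differed by -0.20 ± 0.13 (SE, n = 2 per group). These are the 3 brightest of the list. Leptin (Lep), named after its values were seen, was a clear exception, with 10.7 on both wild-type arrays against 6.95 and 4.48 on the knockout arrays, a difference of -5.00 ± 0.89 that exceeded that of every lipolysis gene measured here. Of the white markers, 0 were higher and 4 were lower without overlap, as were 26.3% and 32.5% of all tested genes. Taken relative to the median of these markers on each array, a comparison added after the values were seen, the difference of Ptger3 was -2.85, of Npr3 -2.49, of G0s2 -1.33, of Paqr9 -3.36 and of Pde3b 0.73. The 7 tested brown and beige markers had a median of -0.93, and 6 of them were lower without overlap. The 3 brightest were Cidea at -1.48, Cox7a1 at -0.93 and Cox8b at -0.71. Ucp1 and Dio2, named after their values were seen, differed more, by -3.11 ± 1.1 and -1.52 ± 0.14. Ucp1 had 12.1 and 11.9 on the wild-type arrays, against 10.4 and 7.37 on the knockout arrays. The groups of Elovl3 (-0.19) overlapped. Among other tissues, blood endothelial (-0.34) and macrophage markers (-0.38) were lower in the median and luminal epithelial (0.73) and Schwann cell markers (0.77) higher, with smooth muscle at 0.14. Their part in the differences of the lipolysis genes was not tested.

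**Figure D3:**
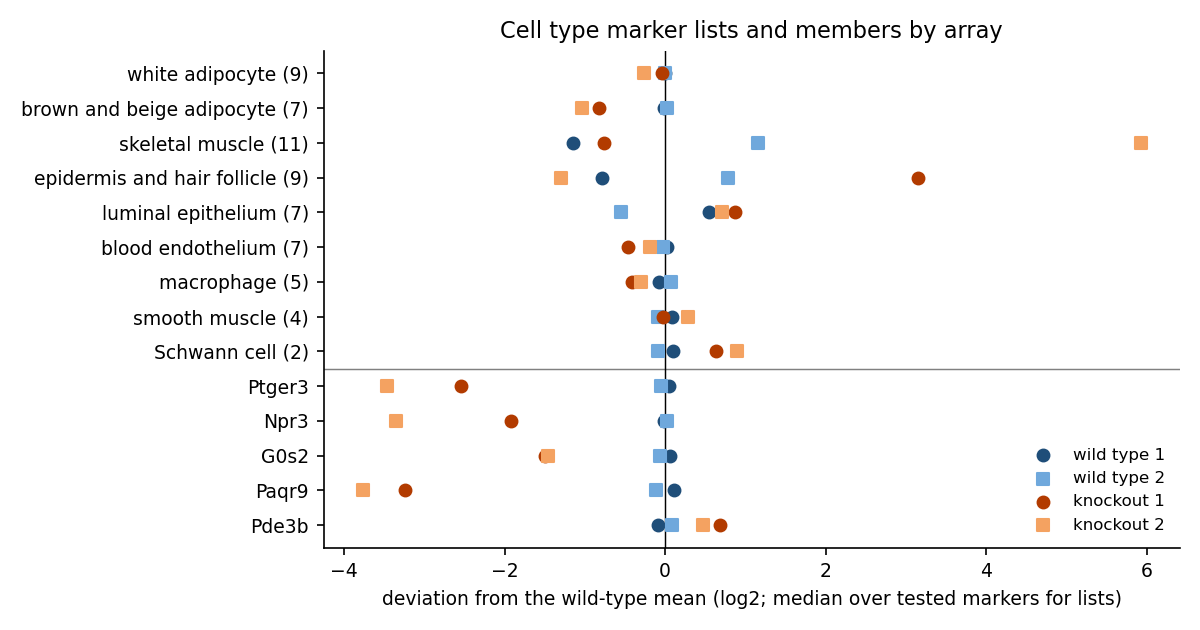
Deviation from the wild-type mean (log2, x axis) on each array, as the median of the tested markers of 9 cell types (number of markers in brackets) and, below the line, for 5 lipolysis genes. Muscle markers reach 5.93 in knockout replicate 2 and epidermal markers 3.16 in knockout replicate 1, whereas Ptger3, Npr3, G0s2 and Paqr9 lie below zero in both knockout arrays.

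The rest of the lipolysis pathway was followed in 10 lists of 112 genes, of which 71 were tested. With limma and Benjamini-Hochberg adjustment over all tested genes 0 of the 71 passed, the smallest adjusted p was 0.101, and 17 (23.9%) had an unadjusted p under 0.05, close to the 21.8% of all tested genes. Of the 71 genes, 27 (38.0%) were lower and 16 (22.5%) higher without overlap, against 32.5% and 26.3% of all tested genes. The median difference was -0.05. Counts without overlap for single lists below stand beside these same shares of all tested genes, rest on few genes each and carry no test. With a knockout array left out, the remaining knockout array is taken to have the wild-type spread, so no count among the 71 is given for such fits.

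Brakes outside the main list likewise lay on both sides. Of 7 tested genes among other restraining receptors and insulin signalling, 3 were higher and 1 lower without overlap, none past the threshold. The niacin and ketone body receptor gene Hcar2, which couples to the inhibitory G protein, had 6.55 and 7.09 on the wild-type arrays, against 9.79 and 7.84 on the knockout arrays (1.99 ± 0.72, SE, n = 2 per group). Its highest value was in knockout replicate 1, the array with epidermal markers at 3.16, and the part of that tissue was not tested. The insulin receptor gene Insr had 8.20 and 8.35 against 9.47 and 9.65 (1.28 ± 0.12, or 2.43-fold), with near-equal values in the 2 knockout arrays. Its other 2 probe sets were below the brightness limit and differed by 0.11 and -0.01. Irs1, the docking protein of the insulin receptor, was also higher (0.91 ± 0.10), with 9.71 and 9.80 against 10.7 and 10.6. The fatty acid receptor gene Ffar4 was lower, at -0.91 ± 0.38. In limma the adjusted p-values of Hcar2, Insr, Irs1 and Ffar4 were 0.234, 0.101, 0.102 and 0.273.

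Of 7 tested other stimulating receptors, 2 were higher and 3 lower without overlap, with a median of -0.05. Mc2r, the receptor of the pituitary hormone ACTH, had 7.66 and 7.84 on the wild-type arrays, against 9.77 and 8.84 on the knockout arrays (1.56 ± 0.35, SE, n = 2 per group). Of the other prostaglandin E2 receptors, the cyclic AMP raising Ptger2 was lower, with 6.28 and 6.09 against 4.94 and 4.79 (-1.31 ± 0.12), and Ptger4, which also raises cyclic AMP, was higher by 0.73 ± 0.18. Ptger2 thus differed in the same direction as Ptger3, and its knockout values were near the brightness limit. The other probe set of Ptger4 was below that limit and differed by 0.095. The thyrotropin receptor gene Tshr differed by -0.60 ± 0.14, with -0.30 in another probe set and -1.32 in one below the brightness limit. The adjusted p-values in limma were 0.149 for Mc2r, 0.101 for Ptger2, 0.159 for Ptger4 and 0.155 for Tshr.

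**Figure D4:**
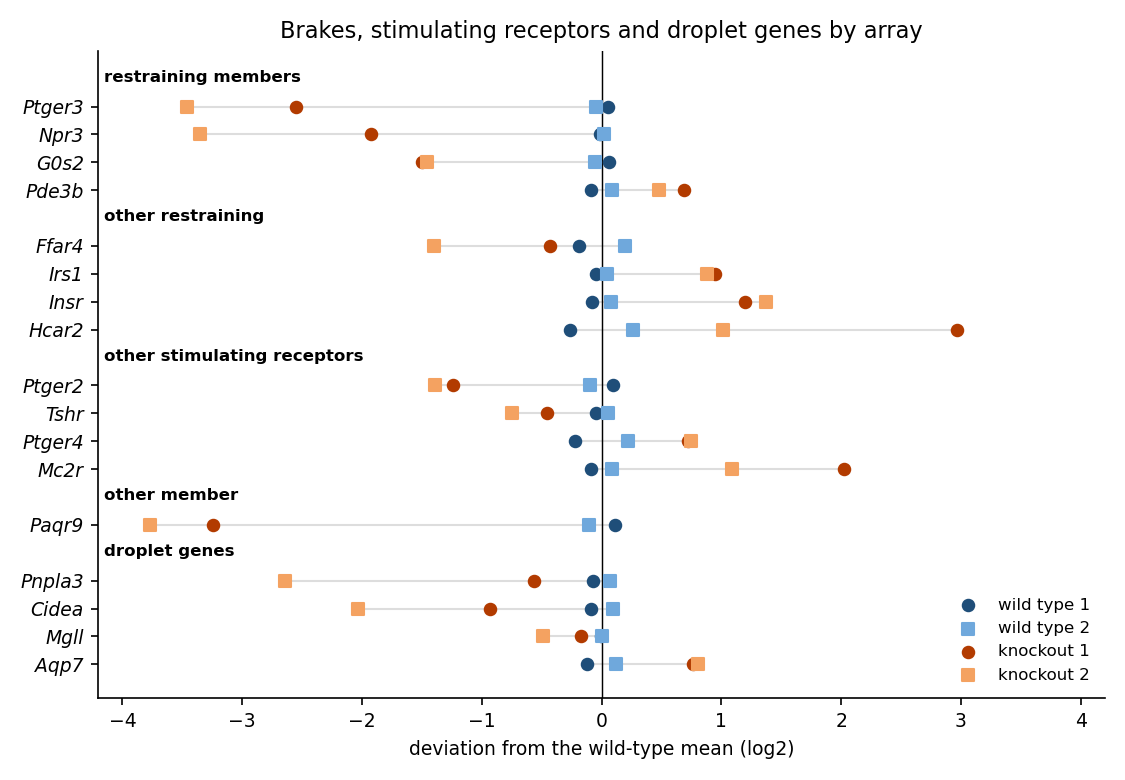
Deviation from the wild-type mean (log2, x axis) of single genes on each of the 4 arrays, grouped by role in lipolysis. Among restraining genes Ptger3, Npr3, G0s2 and Ffar4 lie left of zero in both knockout arrays and Pde3b, Irs1, Insr and Hcar2 right of it, and the stimulating receptors likewise lie on both sides.

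The genes for the lipases that these signals reach and for their partners did not share a direction. The hormone-sensitive lipase gene Lipe had 10.5 and 10.7 on the wild-type arrays, against 11.1 and 10.6 on the knockout arrays, and Abhd5, the coactivator of the Pnpla2 lipase, had 9.03 and 9.09 against 9.75 and 9.09, with overlapping groups in both. Both genes were singled out after their values were seen. The lead set of Pnpla2, the lipase that G0s2 inhibits, had a mean over the 4 arrays below the brightness limit and was not tested. It had 4.66 and 4.86 against 4.94 and 5.02, higher by 0.22 without overlap, and only knockout replicate 2 reached the limit. Of 8 tested genes for lipases and droplet proteins 4 were lower and 1 higher without overlap. Pnpla3 (-1.60 ± 0.75, SE, n = 2 per group) and the droplet protein gene Cidea (-1.48 ± 0.41) were lower, with their lowest values in knockout replicate 2, and the monoglyceride lipase gene Mgll differed by -0.33 ± 0.14. The glycerol channel gene Aqp7 was higher by 0.79 ± 0.13, although its other probe set differed by 0.06. Adjusted p-values in limma were 0.304 for Pnpla3, 0.179 for Cidea, 0.285 for Mgll and 0.117 for Aqp7.

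Downstream of the receptors, over 19 tested G protein, cyclase and kinase genes the median was 0.00, with 6 lower and 2 higher without overlap. Gucy1b1 (-0.67 ± 0.24, SE, n = 2 per group) and Gucy1a1 (-0.42 ± 0.11), the subunits of the soluble guanylyl cyclase, were lower in their lead sets. The other Gucy1b1 set differed by -0.40, and the other Gucy1a1 set above the brightness limit by -0.06. Prkar2b (-0.45 ± 0.31), a regulatory subunit of the cyclic AMP dependent kinase abundant in fat, was also lower. The adenylyl cyclase gene Adcy3 was higher by 0.25. Of 9 tested other phosphodiesterases 4 were lower and 3 higher without overlap, with Pde4d at 0.47, Pde9a at -0.35, Pde1b at 0.33 and Pde4b at -0.28. Pde3b, at 0.58, was thus on the higher side, as were Pde4d and Pde1b, while Pde9a and Pde4b were on the lower side. Of 6 receptor kinases, arrestins and the related Rgs2, Grk3 was lower by -1.14 ± 0.15 and Grk5 by -0.67 ± 0.09, both kinases that switch off active receptors. The other probe sets of Grk3 and Grk5 were below the brightness limit and differed by -0.255 and -0.086. Rgs2, which shortens G protein signals, was higher by 1.28 ± 0.49 and Arrb1 by 0.18. In limma the adjusted p-values of Grk3, Grk5 and Rgs2 were 0.105, 0.105 and 0.251.

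Supply of the ligands could be followed only in part. The natriuretic peptide genes Nppa, Nppb and Nppc and the processing protease gene Corin were below the brightness limit. Npr2, the receptor of the C-type peptide, was higher by 0.67 ± 0.25 (SE, n = 2 per group), with 8.04 and 7.90 on the wild-type arrays, against 8.32 and 8.96 on the knockout arrays. Among 5 tested genes for prostaglandin and adenosine supply 4 were lower without overlap, as were 32.5% of all tested genes. These were the prostaglandin E synthases Ptges2 (-0.81 ± 0.34), Ptges (-0.51 ± 0.27) and Ptges3 (-0.10 ± 0.10) and the adenosine-forming Nt5e (-0.24 ± 0.15). The other probe sets of Ptges differed by 0.12 and 0.02, and the other Nt5e set above the limit by 0.56. The amine-degrading Maob was higher by 0.44 ± 0.11. None passed the threshold, with adjusted p-values in limma of 0.237 for Npr2, 0.270 for Ptges2 and 0.171 for Maob.

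Of 6 tested relatives of Paqr9, progestin and adiponectin receptor genes, Paqr4 (-0.53 ± 0.19, SE, n = 2 per group) and Paqr7 (-0.47 ± 0.10) were lower and the adiponectin receptor gene Adipor2 was higher (0.61 ± 0.10) without overlap, with a median of -0.10. The adjusted p-values in limma were 0.228, 0.140 and 0.117. The other probe set of Paqr7 was below the brightness limit and differed by 0.073.

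Genes with the profile most like that of Ptger3 were sought by the Euclidean distance over the 4 arrays between profiles centred on their own means (log2). The 5 nearest were the acetyl-CoA synthetase gene Acss2 (distance 0.24), the insulin receptor adaptor gene Grb14 (0.40), Apln (0.43), which encodes the peptide apelin, C730029A08Rik (0.46) and the ribonuclease gene Rnase2a (0.47). Acss2 had 9.91 and 9.80 on the wild-type arrays, against 7.58 and 6.39 on the knockout arrays. Of the other lipolysis genes Npr3 ranked 10 (0.52), Paqr9 12 (0.58) and G0s2 82 (1.67) by this distance, and Pde3b 10285 (3.63). For Paqr9 the nearest were Rnase2a (0.27), the targeted gene Mmp14 (0.51), the histone gene H3c15 (0.56), which has near-identical relatives, Ptger3 (0.58) and Acss2 (0.79). Mmp14, the array's name for Mt1-mmp, had 8.92 and 8.73 on the wild-type arrays, against 5.83 and 5.68 on the knockout arrays. The profile of Npr1 was almost flat, and its nearest were other flat genes (Pgls, Dmd, Atp4b, Angpt4 and Rbpjl, at distances up to 0.02). With 4 arrays these distances describe how alike the sizes of the differences between arrays were, and they carry no test.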

How the data were processed

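Total RNA was labelled with a kit priming from the 3-prime end and hybridised to Affymetrix arrays, 1 per sample, per the labels' protocols. Probe sets were summarised by the authors with the RMA method of affy, which the submitters' processing notes name without a version. The deposited values are log2 expression values, a scale read from the values, with array medians of 4.92, 4.92, 4.92 and 4.98. RMA equalises the arrays' distributions, which hides any shift shared by most genes. Detection calls were not used. Precision is limited by having 4 arrays.

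Of 45141 probe sets, 28898 named 1 gene, 551 several and 15692 none, and only the first were used. Gene identifiers of 28689 matched a RefSeq table of GRCm38.p6, and 0 symbols needed updating. The probe set with the highest mean led for each gene, and 11078 genes whose mean reached 4.94 (the median of all probe sets) were tested with limma 3.58.1 in R 4.3.3 (lmFit and eBayes, no covariate, Benjamini-Hochberg adjustment at 0.05). SE are from that fit. The code was tested on simulated data. P-values set each difference of group means against the spread between arrays of the same genotype, moderated over all tested genes.

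Members and lists were chosen with earlier results of these data known. From each pathway list the text names up to 4 genes with the largest difference among those without overlap, beside the listed genes, Mmp14, up to 3 of the brightest markers of some cell types, and the 5 nearest profiles of Ptger3, Npr1 and Paqr9. Genes below the brightness limit, and markers named after their values were seen, are named as such. Alternatives were 2 other brightness filters, 2 other ways to choose probe sets, 3 scalings, weights per array, an intensity trend or robust prior for the variance, a block for the replicate number, leaving out each array, and, added after the values were seen, white adipocyte markers as reference.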

Additional observations from a re-analysis of the deposited data

How the results depend on the processing

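Ptger3, Npr3, G0s2 and Paqr9 stayed lower and Pde3b higher in the knockout under all 16 alternatives, but most of these could not change a sign. The brightness filters, variance settings, array weights and replicate block leave a difference of group means as it was. Leaving out an array cannot reverse groups that do not overlap. Outside the leave-one-out fits, the largest move was that of Ptger3, from -3.00 to -1.47 with the mean of its probe sets, which includes the dim set. That setting also took the median of the restraining genes from -2.06 to -1.48 and their mean relative to Npr1 from -1.58 to -1.10. Npr1, at -0.05, was 0.10 relative to white adipocyte markers. With each array left out in turn the median of the restraining genes ran from -2.41 to -1.71 and their mean relative to Npr1 from -2.00 to -1.16. Npr3 ran from -3.35 without knockout replicate 1 to -1.93 without knockout replicate 2, and Pde3b from 0.48 to 0.69. Over all genes limma called 0 higher and 0 lower under every alternative that kept all arrays. With an array left out the counts ran from 0 to 1455 higher and from 0 to 2725 lower. They were 0 without either wild-type array, highest without knockout replicate 1, and 746 and 553 without knockout replicate 2, where the remaining knockout array is taken to have the spread of the wild-type arrays. With the replicate number as a block the restraining median was again -2.06, as it must be in this balanced design, and 0 genes were called. Same-numbered arrays did not deviate together (r = -0.089 across genes). With 2 arrays per group this cannot show whether same-numbered samples were paired. Brightness over background limits what can be said of Npr1, Pnpla2 and the second Ptger3 set.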
